A study of Mus musculus with 12 samples.

Results

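The 7 genes of the lipid droplet examined here in mouse quadriceps encode the coat proteins Plin2, Plin3, Plin4 and Plin5 and the lipases Pnpla2, Lipe and Mgll. They were taken as every probe set of the array whose annotated gene symbol is one of these 7 names, which gave 11 of the 22690 probe sets, and 7 of the 12394 genes with a probe set of their own. Of the 11, 9 had enough signal to be tested, at least 1 for each gene. Muscle came from C57Bl/6J mice in 4 groups of 3 arrays each. The combination group was trained on a treadmill and given GW1516 at 5 mg/kg per day for 4 weeks. The GW group stayed sedentary and was given the same dose for 4 weeks, the exercise group was trained for 4 weeks with vehicle, and the vehicle group stayed sedentary. GW1516 is an agonist of the nuclear receptor PPARδ. Each array held RNA of 3 pooled mice, so a group stands for 9 animals and the spread is that between pools. All signals are the authors' linear array values, and levels of different probe sets are not set against each other.

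Fat is stored in cells as droplets of triglyceride with a coat of proteins. The perilipins are that coat. Plin2 and Plin3 are found in most tissues, Plin4 is abundant in fat and muscle, and Plin5 is typical of tissues that burn fat, where it links droplets to mitochondria. The lipases release the fatty acids in sequence: Pnpla2 (ATGL) removes the first, Lipe (hormone-sensitive lipase) the second and Mgll (monoacylglycerol lipase) the last. Several of these genes are known targets of PPAR receptors, and Lipe, Mgll and Plin4 are also strongly expressed in fat cells. Adipoq, which encodes the hormone adiponectin of fat cells, was therefore read on every array beside them.

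The promoter windows of the genes on which the results turn are printed for reference, from RefSeq on build GRCm38.p6, each from 250 bases before to 50 bases after an annotated start, read 5′ to 3′ on the gene's strand. All 7 genes had at least 1 window, 10 in all. Capitals mark AGGTCA, the half-site of nuclear receptors such as PPAR, on either strand, and CACGTG, an E-box, which reads the same on both strands. The marked stretches do not overlap. The windows lie at chr4:86670010-86670309 (minus strand) for Plin2, chr17:56117499-56117798 (minus strand) for Plin5, chr7:25395938-25396237 (minus strand) for Lipe and chr6:88724162-88724461 (plus strand) for Mgll. Plin5, Lipe and Mgll had 2 windows each, of which 1 is printed. For Lipe and Mgll it is the one with an E-box, and their other windows held neither motif.
Plin2: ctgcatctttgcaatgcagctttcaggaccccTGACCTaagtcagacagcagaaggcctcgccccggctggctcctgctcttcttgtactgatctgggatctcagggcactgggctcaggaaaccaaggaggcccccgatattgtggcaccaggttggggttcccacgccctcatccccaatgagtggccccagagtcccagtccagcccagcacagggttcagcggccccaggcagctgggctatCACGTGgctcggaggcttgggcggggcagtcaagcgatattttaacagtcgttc
Plin5: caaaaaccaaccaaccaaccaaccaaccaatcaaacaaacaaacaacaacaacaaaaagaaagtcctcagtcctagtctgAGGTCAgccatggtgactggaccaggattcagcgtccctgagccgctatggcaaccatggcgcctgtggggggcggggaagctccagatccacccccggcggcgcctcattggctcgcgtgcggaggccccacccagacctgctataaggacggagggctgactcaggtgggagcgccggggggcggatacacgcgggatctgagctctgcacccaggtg
Lipe: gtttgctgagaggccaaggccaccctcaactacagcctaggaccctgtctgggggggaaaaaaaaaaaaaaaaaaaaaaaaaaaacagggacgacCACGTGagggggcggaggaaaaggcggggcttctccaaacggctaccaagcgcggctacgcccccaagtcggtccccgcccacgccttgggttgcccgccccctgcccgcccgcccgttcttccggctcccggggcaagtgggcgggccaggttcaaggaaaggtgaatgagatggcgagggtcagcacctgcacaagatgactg
Mgll: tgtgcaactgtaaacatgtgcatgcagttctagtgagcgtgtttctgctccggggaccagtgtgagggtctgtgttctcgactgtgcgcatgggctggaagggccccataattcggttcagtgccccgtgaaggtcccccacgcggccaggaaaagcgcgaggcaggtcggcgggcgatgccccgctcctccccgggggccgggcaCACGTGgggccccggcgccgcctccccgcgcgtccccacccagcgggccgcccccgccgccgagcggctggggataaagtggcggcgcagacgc
A half-site was found in 3 of the 10 windows, in Plin2 and in both windows of Plin5, and 16.3% of all 32851 windows in the table hold one. An E-box was found in 3 windows, that of Plin2 and 1 each of Lipe and Mgll, against 7.15% of all windows. The E-box was added to the search after the windows had been read. In the printed windows the half-site starts at base 33 of Plin2 and base 81 of Plin5, and the E-box starts at base 247 of Plin2, base 96 of Lipe and base 207 of Mgll. The paired repeat AGGTCANAGGTCA, to which PPAR binds with its partner RXR, was in 0 of the 10 windows and in 0.0396% of all windows, on either strand. A match of letters is no binding site, and these arrays measured no binding.

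The arrays differed in one fat cell gene that bears on several results. Adipoq had signals of 269.6, 1049 and 1471 on the combination arrays 1, 2 and 3. It had 248, 346 and 363 on the GW arrays, 283, 338 and 334 on the exercise arrays and 331, 209.7 and 365 on the vehicle arrays. Combination arrays 2 and 3 thus stood above the other 10 arrays, while combination array 1 lay among them. Of the fat cell marker list, 9 of 11 genes had a probe set, and their summed signal was 7223, 13006 and 16178 on the combination arrays. It ranged over 6089 to 9217 in GW, 6567 to 8074 in exercise and 6635 to 7434 in vehicle. Car3, which muscle also expresses strongly, gave 5326, 8125 and 8640 of the combination sums. Without Car3 the list summed to 1898, 4882 and 7538 on the combination arrays, and to 2181 to 2480 in GW, 2219 to 2657 in exercise and 1871 to 2613 in vehicle. Retn had 150.1, 521 and 929 on the combination arrays and 209, 82.8 and 97.0 on the vehicle arrays. In the combination against vehicle all 11 tested probe sets of the list were positive, against 49.6% of all probe sets. Of the 11, 10 were higher at an unadjusted p under 0.05, against 5.48% of all, and the median log2 fold change was 1.08. The 11 probe sets read 7 genes, 4 of them Fabp4 and 2 of them Car3. By limma 0 of the 11 passed after adjustment, the smallest adjusted p being 0.0591, with Adipoq at a log2 fold change of 1.35 ± 0.43 (SE, limma adjusted p = 0.312). Adipoq, the secreted resistin (Retn) and the droplet protein Cidec were measured above background, the leptin gene Lep lay under the filter, and Cfd and Plin1 were not analysed here. The brown fat markers Ucp1, Cidea and Elovl3, all under the filter, summed to 43.2, 147 and 364 on the combination arrays and to 28.9 to 58.9 on the other 9. Markers of macrophages summed to 612, 1144 and 983 on the combination arrays, and to 925 to 1207 in GW, 1043 to 1709 in exercise and 748 to 1390 in vehicle arrays. Endothelial markers summed to 651, 899 and 917 on the combination arrays, and to 625 to 759 in GW, 741 to 936 in exercise and 779 to 874 in vehicle arrays. Combination array 1 thus had the lowest macrophage sum of the 12 arrays. It was also the lowest of its group in 8 of the 9 tested droplet probe sets. The part of this array's makeup in the comparisons was not tested. The muscle markers, such as creatine kinase (Ckm) and fast myosin (Myh4), summed to 136260 to 151224 in combination, 125336 to 157347 in GW, 149073 to 157216 in exercise and 126459 to 131794 in vehicle arrays, so the labelled tissue was seen on every array. All combination and exercise sums lay above those of vehicle. In exercise against vehicle, 8 of 10 muscle probe sets were higher at an unadjusted limma p under 0.05, against 5.69% of all, and 0 passed after adjustment. The part of this difference in the comparisons with vehicle was not tested. In such pooled tissue, more cells of a type and more RNA per cell cannot be told apart.

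**Figure D1:**
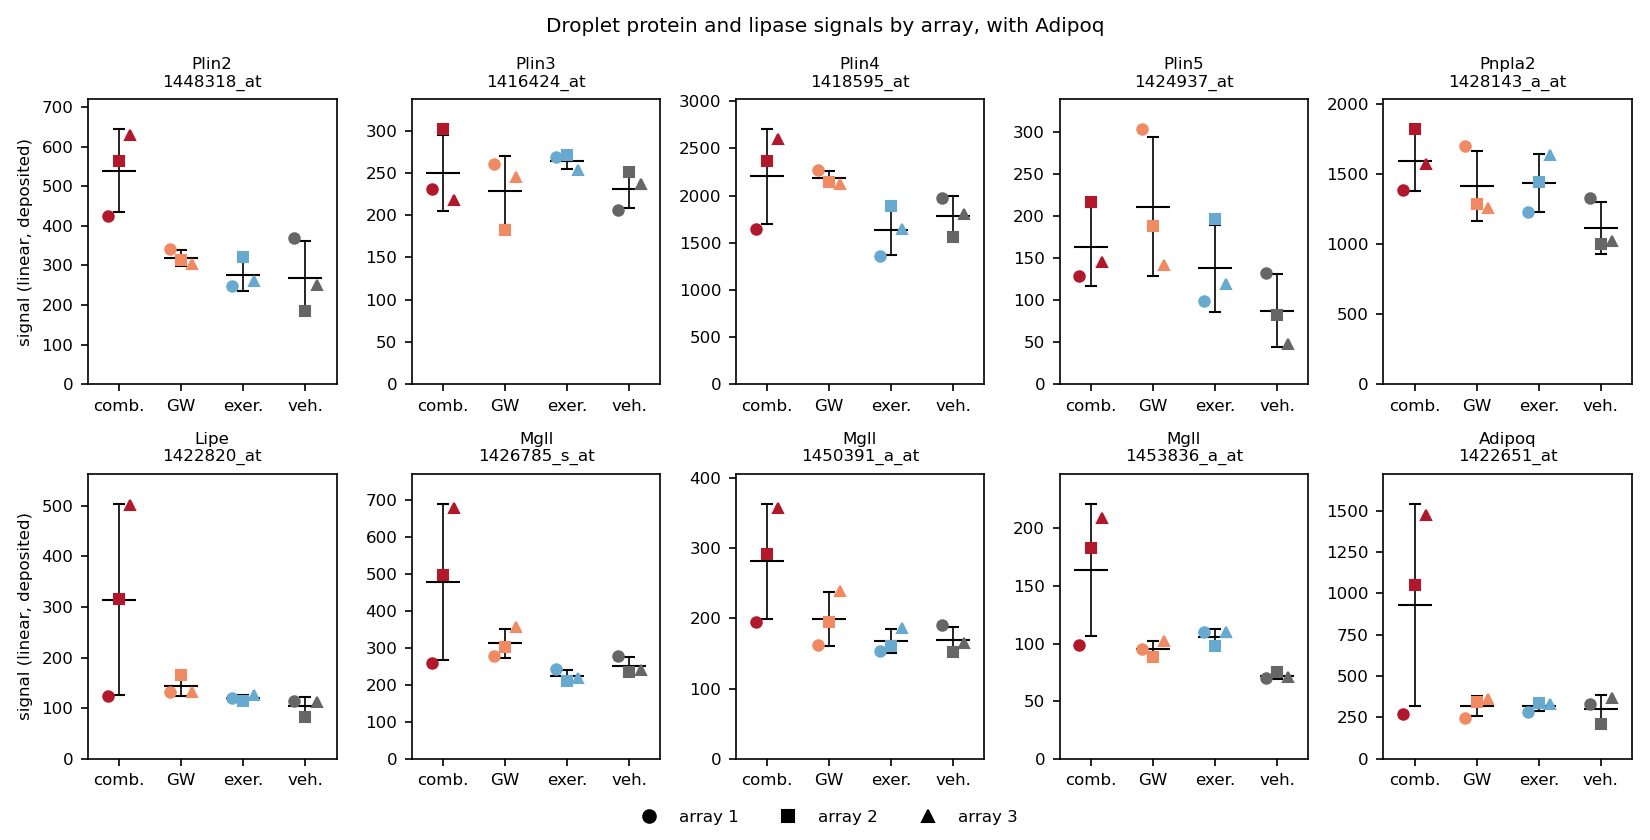
Signal (linear, as deposited) of the 9 tested probe sets and of Adipoq on each of the 12 arrays, by group (combination, GW, exercise and vehicle). Marker shapes give the array number, and black bars give the group mean and SD (n = 3). Plin2 was highest in all 3 combination arrays, while Lipe, Mgll and Adipoq were high in combination arrays 2 and 3.

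Plin2, the general droplet coat protein, had signals of 426, 564 and 629.8 on the combination arrays. The GW arrays had 342, 313 and 302, the exercise arrays 247, 320.3 and 259, and the vehicle arrays 369, 185 and 251. The 3 combination arrays were the 3 highest of all 12. The Adipoq signal was high on combination arrays 2 and 3 and, on combination array 1, below that of most arrays. The group means, in falling order, were 539.7 ± 104 in combination, 319 ± 20.8 in GW, 276 ± 39.1 in exercise and 269 ± 93.3 in vehicle (SD, n = 3 arrays). The arrays of GW, exercise and vehicle overlapped one another. Against vehicle the combination had a log2 fold change of 1.05 ± 0.21 (SE), a 2.06-fold difference, with a limma adjusted p = 0.0756 over all 13575 probe sets tested. This missed the threshold of 0.05. Against exercise the difference was 0.96 ± 0.21 on the log2 scale (adjusted p = 0.104) and against GW it was 0.74 ± 0.21 (adjusted p = 0.716), in each case with no overlap between the arrays. The call depended on single arrays, since it was made without vehicle array 1 (log2 1.30, adjusted p = 0.00793) or combination array 1 (log2 1.21, 0.0272). The fit without combination array 1 rested on combination arrays 2 and 3, the 2 with high Adipoq. With the log2 Adipoq signal as a term of the fit the Plin2 fold against vehicle was 0.69 ± 0.24 (adjusted p = 0.573). With combination array 1 alone standing for its group it was 0.72 ± 0.30 (0.748), the lone array being assumed to vary like the others. Over 24 alternatives the value ran from 0.69 to 1.30 and its adjusted p from 0.00793 to 0.748. Within groups, Adipoq differed mainly between combination array 1 and combination arrays 2 and 3, so the Adipoq term rested largely on those arrays. The fit with that term and the fit without arrays 2 and 3 are therefore not separate checks. Adipoq was itself high on 2 of the 3 combination arrays. The part of fat cell RNA in the difference was not tested.

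Plin5, the perilipin of fat-burning tissue, had another pattern. Its signals were 129, 216 and 145 on the combination arrays, 302, 188 and 142 on the GW arrays, 98.5, 196 and 118 on the exercise arrays and 132, 82.5 and 47.2 on the vehicle arrays. The highest value was that of GW array 1 and the lowest that of vehicle array 3, and the 3 GW arrays lay above the 3 vehicle arrays. Means fell in the order GW (211 ± 82.8), combination (163 ± 46.5), exercise (137 ± 51.3) and vehicle (87.4 ± 42.8), and each neighbour in this order overlapped the next. GW against vehicle gave a log2 fold change of 1.32 ± 0.37 (95% interval 0.54 to 2.10), a 2.50-fold difference, with an unadjusted p of 0.0026 and a limma adjusted p = 0.471. The combination against vehicle gave 0.99 ± 0.37 (adjusted p = 0.397) and exercise against vehicle 0.71 ± 0.37 (adjusted p = 0.513). With Adipoq in the fit the GW difference was 1.32, as large as before, and without GW array 1 it was 1.02. Over all alternatives it ran from 0.94, without vehicle array 3, to 1.68, without vehicle array 1, with adjusted p between 0.205 and 0.824. Both GW array 1 (Adipoq 248) and the other GW arrays had Adipoq signals inside the range of the vehicle arrays.

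**Figure D2:**
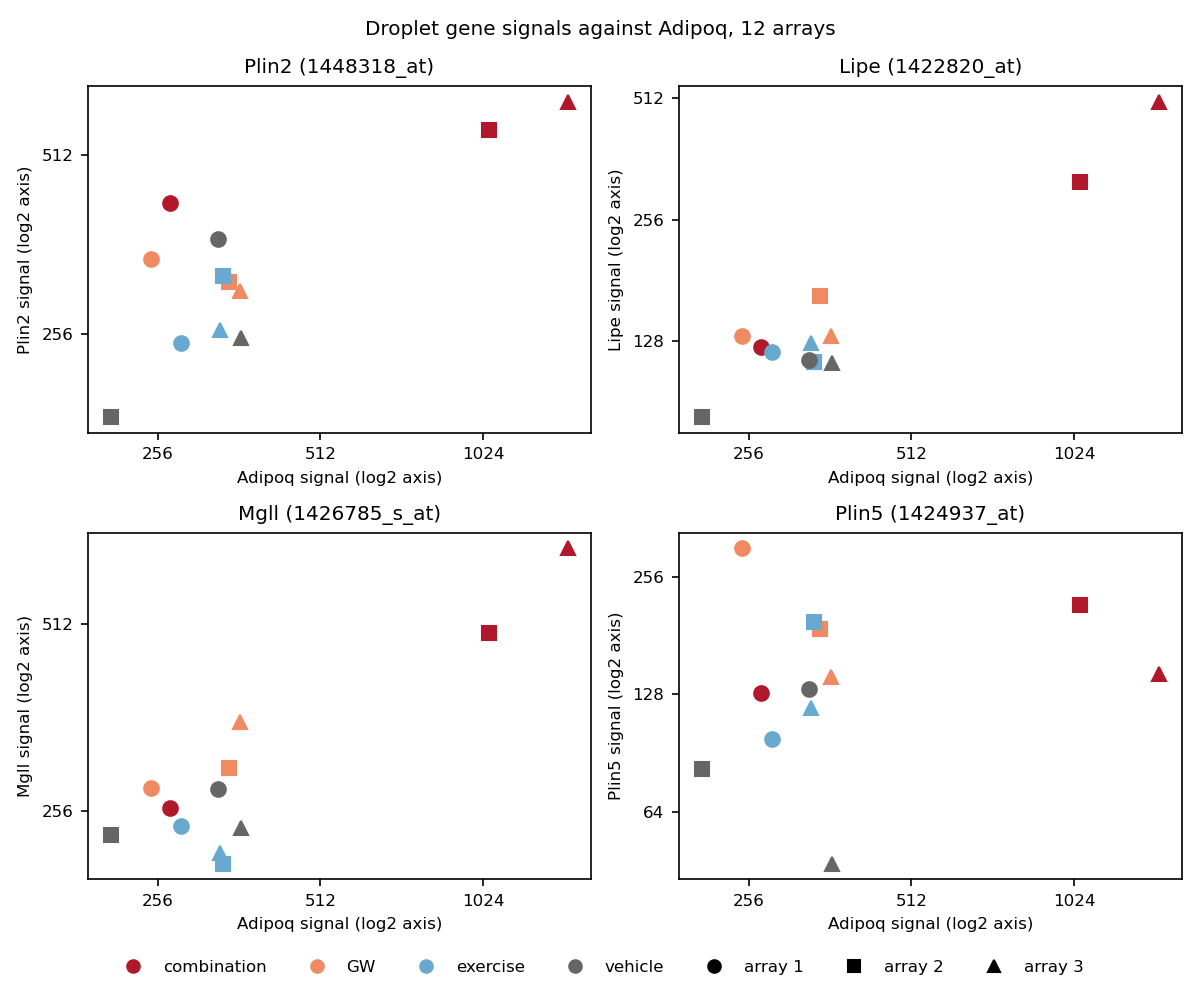
Signals of Plin2, Lipe, Mgll (1 of its probe sets) and Plin5 against the Adipoq signal of the same array, on log2 axes, for 12 arrays. Colour gives the group and shape the array number. Combination arrays 2 and 3 lie apart at Adipoq signals of 1049 and 1471, with high Plin2, Lipe and Mgll, while Plin5 is highest in GW array 1, at an Adipoq signal of 248.

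Plin4 and Plin3 differed less. Plin4 had 1642, 2364 and 2599.6 on the combination arrays, 2276, 2145 and 2122 on the GW arrays, 1360.0, 1892 and 1646 on the exercise arrays and 1979, 1559 and 1807 on the vehicle arrays. The 3 GW arrays were close together and all above the vehicle arrays, but the log2 fold change was 0.30 ± 0.15 (adjusted p = 0.783). The combination against vehicle gave 0.29 ± 0.15 (0.565). That value was -0.078 with Adipoq in the fit and -0.11 without combination arrays 2 and 3, so its sign rested on those arrays. Plin3, a coat protein that also lies free in the cytosol, had group means of 250.1 ± 44.8 in combination, 229 ± 41.3 in GW, 264 ± 9.90 in exercise and 231 ± 22.9 in vehicle. Its single arrays lay between 182 and 301, and the 3 exercise arrays (269, 271 and 253) were just above the vehicle arrays (206, 251 and 236). That log2 difference was 0.20 ± 0.16 (adjusted p = 0.705). Plin4 and Plin5 lie next to each other on chromosome 17 in the RefSeq table, with Lrg1 on the other side of Plin5.

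Among the lipases, Pnpla2 opens triglyceride breakdown and its tested probe set gave 1388, 1818 and 1569 on the combination arrays. It gave 1702, 1288 and 1258 on the GW arrays, 1227, 1441 and 1638 on the exercise arrays and 1328, 1001 and 1019 on the vehicle arrays. The combination arrays lay above the vehicle arrays, while the GW and exercise arrays overlapped them through vehicle array 1. The log2 fold changes against vehicle were 0.52 ± 0.15 in combination (adjusted p = 0.244), 0.34 ± 0.15 in GW (0.757) and 0.37 ± 0.15 in exercise (0.418). With Adipoq in the fit the combination value was 0.40 ± 0.19 (adjusted p = 0.681). The GW value was 0.20 without GW array 1 (adjusted p = 0.915). The other Pnpla2 probe set ran from 2.97 to 45.8 and was too dim to be tested. For scale, the signals of 12 control probe sets of bacterial genes had their 95th percentile at 20.6.

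Lipe, which takes the second fatty acid, had 124, 317 and 502 on the combination arrays. The GW arrays had 132, 166 and 132, the exercise arrays 121, 114 and 127 and the vehicle arrays 115, 83.1 and 113. Combination arrays 2 and 3 were thus 2.59 and 4.11 times the median of the other 10 arrays, while combination array 1 was 1.01 times that median. Adipoq was 3.16, 4.43 and 0.811 times its own such median in combination arrays 2, 3 and 1. The combination had a log2 fold change of 1.40 ± 0.35 against vehicle (adjusted p = 0.169) and 1.17 ± 0.35 against exercise (0.312). With Adipoq in the fit the difference from vehicle was 0.41 ± 0.22 (adjusted p = 0.734), and without combination arrays 2 and 3 it was 0.27 ± 0.27 (0.944). Without combination array 1, which left only arrays 2 and 3 in the group, it was 1.96 and passed (adjusted p = 0.000564). Over 24 alternatives this was the smallest adjusted p. The GW arrays lay above the vehicle arrays with Adipoq signals inside the vehicle range, at a log2 fold change of 0.47 ± 0.35 (adjusted p = 0.856).

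Mgll, which frees the last fatty acid, was read by 3 tested probe sets. On each of them combination array 1 was the lowest of its group and array 3 the highest. Probe set 1426785_s_at gave 259, 496 and 679 on the combination arrays, 279, 301 and 356 on the GW arrays, 242, 211 and 219 on the exercise arrays and 277, 234 and 240.2 on the vehicle arrays. Probe set 1450391_a_at gave 195, 292 and 356 on the combination arrays, 163, 195 and 239 on the GW arrays, 154, 161 and 186 on the exercise arrays and 189.9, 152 and 165 on the vehicle arrays. Probe set 1453836_a_at gave 98.9, 183 and 209 on the combination arrays, 95.3, 88.0 and 102 on the GW arrays, 109.7, 98.1 and 109.8 on the exercise arrays and 70.4, 74.9 and 70.6 on the vehicle arrays. In all 3 the combination arrays 2 and 3 were the highest of the 12, at 1.66 to 2.71 times the median of the other 10. The log2 fold changes of the combination against vehicle were 0.83 ± 0.25, 0.70 ± 0.21 and 1.11 ± 0.24, with adjusted p = 0.267, 0.263 and 0.0986 by limma. With Adipoq in the fit they were 0.17 ± 0.18, 0.22 ± 0.19 and 0.62 ± 0.24 (adjusted p = 0.880, 0.846 and 0.607). Probe set 1453836_a_at also lay above vehicle on every array of the other groups, at 0.40 ± 0.24 in GW (adjusted p = 0.822) and 0.56 ± 0.24 in exercise (0.436), where 1426785_s_at gave -0.16 ± 0.25 in exercise (0.865). The probe sets therefore disagreed on exercise. The remaining Mgll probe set, at 1.01 to 26.2 with the highest signal on combination array 3, was not tested.

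**Figure D3:**
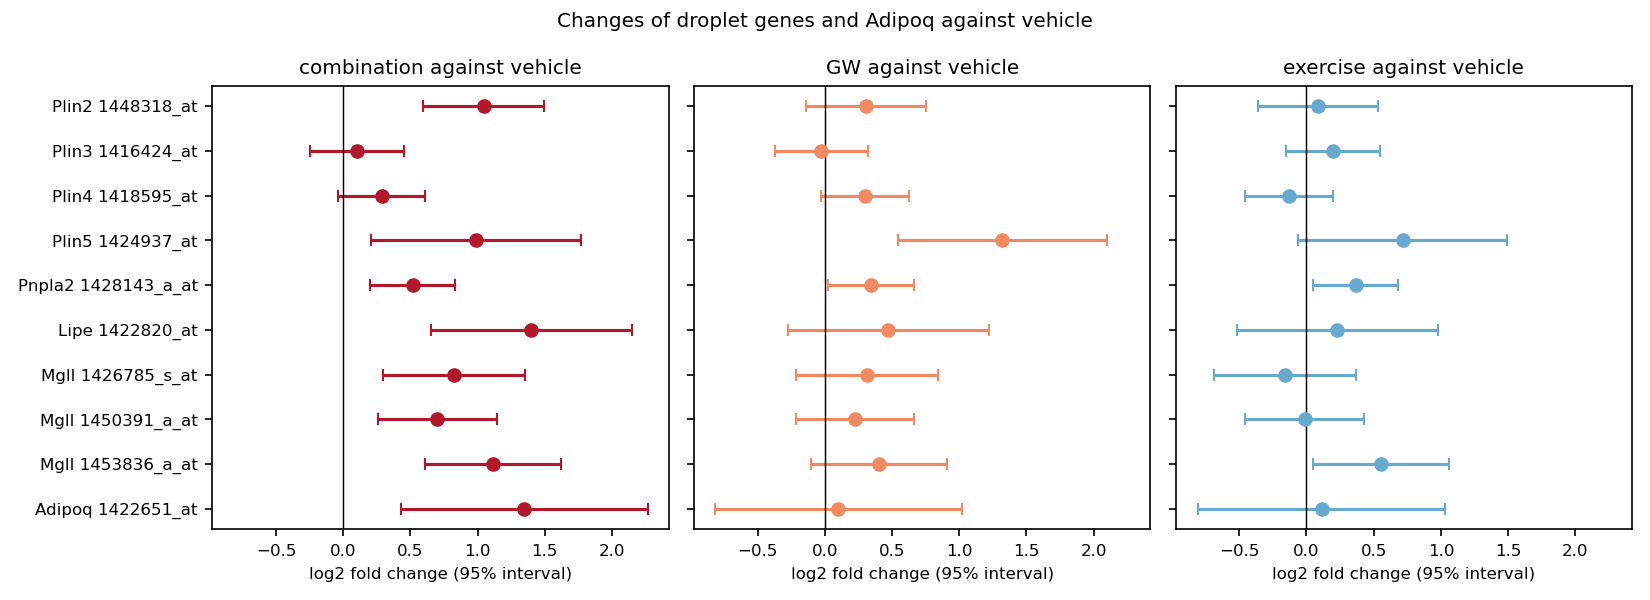
Log2 fold change against vehicle (points) with its 95% interval (bars) from limma for the 9 tested probe sets and Adipoq, in the combination, GW and exercise groups, which share the 3 vehicle arrays. In the combination the intervals of 7 probe sets exclude 0, those of Plin3 and Plin4 do not, and no probe set passed after adjustment over all probe sets.

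Counted together, the combination against vehicle called 0 of the 9 probe sets by limma at an adjusted p under 0.05, where 0.155% of all probe sets tested were called (21 of 13575). At an unadjusted p under 0.05, 7 of the 9 were higher, all but Plin3 and Plin4, against 5.48% of all probe sets. Of these 7, 3 read the same gene, Mgll. In 5 of the 9 the 3 combination arrays lay above the 3 vehicle arrays, against 7.94% of all probe sets. The median log2 fold change of the 9 was 0.83, with a range of 0.10 to 1.40, and that of all probe sets was -0.0027. The fat cell list, whose members were high on the same arrays, had a median of 1.08. Leaving out combination array 1 left its group only arrays 2 and 3, the 2 with high Adipoq, here and in the later comparisons. Without it, 4 of the 9 were called (Plin2, Lipe and 2 probe sets of Mgll), where 52 of all probe sets were (0.383%). Without vehicle array 1 only Plin2 was, where 17 of all were (0.125%). With array weights 4 were called (Plin2, Pnpla2, Lipe and Mgll 1453836_a_at), where 94 of all were (0.692%). With Adipoq in the fit 0 were called, as in the main fit. The unadjusted limma p then stayed under 0.05 only for Plin2 (0.0123) and Mgll 1453836_a_at (0.0229). Without combination arrays 2 and 3 a single array was left in the group, and the log2 fold changes ran from -0.11 in Plin4 to 0.72 in Plin2.

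GW against vehicle addressed the drug in sedentary mice, on the same vehicle arrays. Of the 9, 0 were called, where 0.0958% of all probe sets were. At an unadjusted p under 0.05, 2 were higher, Plin5 and Pnpla2, against 3.68% of all probe sets. The GW arrays lay above the vehicle arrays in 5 of the 9 (Plin4, Plin5, Lipe and 2 probe sets of Mgll), against 5.54%. The median log2 fold change was 0.31 and that of all probe sets was -0.00063. In the same comparison the list of PPAR target genes had 7 of its 22 probe sets called higher and 0 lower. Among them were Acadl, an enzyme of fatty acid oxidation, at 1.34 ± 0.10 (adjusted p = 1.74e-05), and the uncoupling protein gene Ucp3 at 1.41 ± 0.13 (0.000119) in probe set 1420658_at. The other Ucp3 probe set had mean signals of 1437 in GW and 636 in vehicle. The kinase gene Pdk4 had 1.24 ± 0.23 (0.074) and the lipase inhibitor gene Angptl4 2.26 ± 0.66 (0.528), and neither passed. In the combination against vehicle 8 of the 22 were called higher and 0 lower, where 0.147% of all probe sets were called higher.

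Exercise against vehicle, which addressed training alone, called 0 of the 9, where 0.0147% of all probe sets were called. At an unadjusted p under 0.05, 2 were higher, Pnpla2 and Mgll 1453836_a_at, against 5.69% of all probe sets. The exercise arrays lay above the vehicle arrays in 2 of the 9, Plin3 and the same Mgll probe set, against 8.83%. The median log2 fold change was 0.20, beside 0.0079 over all probe sets. Among vehicle arrays, array 1 was the highest in 7 of the 9 probe sets, and its macrophage marker sum was 1390, against 830.0 and 748 in vehicle arrays 2 and 3. The part of this array's makeup in the comparisons with vehicle was not tested.

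The combination was also set against each treatment alone. Against exercise, which isolates the drug in trained mice, 0 of the 9 were called where 0.162% of all probe sets were. At an unadjusted p under 0.05, 6 were higher, namely Plin2, Plin4, Lipe and the 3 probe sets of Mgll, against 4.59% of all probe sets, and arrays did not overlap in 3 (Plin2 and 2 of Mgll), against 7.58%. Mgll 1426785_s_at had the smallest adjusted p after Plin2, with a log2 fold change of 0.99 ± 0.25 (0.169). Plin4 had 0.42 ± 0.15 (adjusted p = 0.432). Without combination array 1, 4 of the 9 were called, where 83 of all probe sets were (0.611%), and Plin2 was called without vehicle array 1 (adjusted p = 0.027), where 26 of all were (0.192%). Against GW, which isolates training in treated mice, 0 of the 9 were called, as were 0 of all probe sets (0%). At an unadjusted p under 0.05, 4 were higher (Plin2, Lipe and 2 of Mgll), against 2.76%. Plin2 alone had no overlap, as 5.13% of all probe sets did. Without combination array 1, 3 were called (Lipe and 2 of Mgll), where 35 of all probe sets were (0.258%). Without combination arrays 2 and 3, Lipe had a log2 difference from GW of -0.20, against 0.92 ± 0.35 with them (adjusted p = 0.803), so its sign rested on those 2 arrays. Plin4 had a log2 difference from GW of -0.013 ± 0.15 (adjusted p = 0.994). The 3 comparisons of the combination share its arrays.

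**Figure D4:**
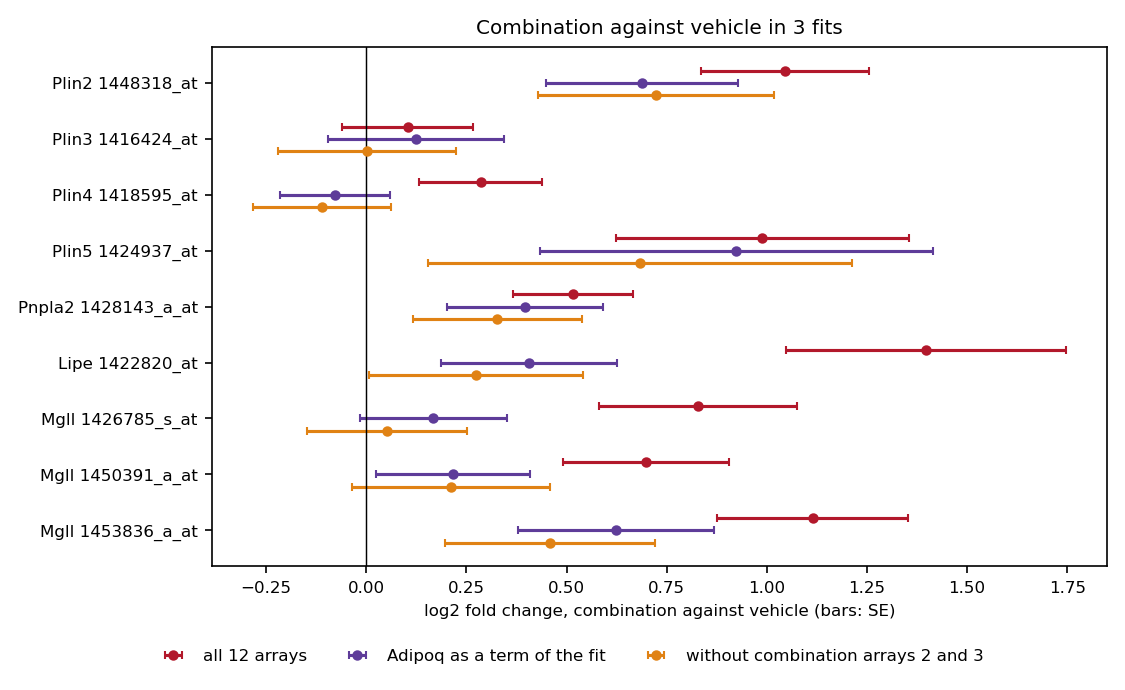
Log2 fold change of the combination against vehicle (points, bars are SE) for the 9 tested probe sets in 3 fits: all 12 arrays, with the log2 Adipoq signal of each array as a term, and without combination arrays 2 and 3. Plin5 and Plin3 moved least with Adipoq in the fit, Lipe and the probe sets of Mgll moved most, and Plin2 lay near 0.7 in both of the other fits. Both of those fits rest largely on how combination array 1 differs from arrays 2 and 3, so they are not separate checks.

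Averaged over sedentary and trained mice, the drug had 8 of the 9 probe sets higher at an unadjusted p under 0.05, all but Plin3, against 4.32% of all probe sets. After adjustment 0 were called, where 0.317% of all were. Plin2 had a mean difference of 0.63 ± 0.15 (adjusted p = 0.131), Plin5 one of 0.80 ± 0.26 (0.390), Plin4 one of 0.36 ± 0.11 (0.321) and Lipe one of 0.82 ± 0.25 (0.320). With Adipoq in the fit the unadjusted limma p stayed under 0.05 for Plin2 (0.00925), Plin5 (0.0266), Lipe (0.0324) and Mgll 1426785_s_at (0.0146). It was 0.0609 for Plin4, 0.148 for Pnpla2, 0.0795 for Mgll 1450391_a_at and 0.145 for Mgll 1453836_a_at. Without combination array 1, 4 were called after adjustment (Plin4, Lipe and 2 of Mgll), where 74 of all probe sets were (0.545%). Plin2 alone was called with array weights, where 76 of all were (0.56%), and without vehicle array 1, where 33 were (0.243%). Training averaged over vehicle and drug had 4 higher at an unadjusted p under 0.05 (Plin2, Pnpla2, Lipe and Mgll 1453836_a_at), against 4.8%, and 0 called, where 0.0147% of all were. Mgll 1453836_a_at had the largest such value, 0.63 ± 0.17 (adjusted p = 0.288), and without combination array 1 it and Lipe were called, where 23 of all probe sets were (0.169%). The interaction, the drug difference with training minus that without it, was 0.65 ± 0.30 for Plin2 (adjusted p = 0.727) and -1.05 ± 0.52 for Plin5 (0.729). It called 0 of the 9 and 0 of all probe sets (0%), with 1 of the 9 (Plin2) higher at an unadjusted p under 0.05, against 3.17%. Plin2 and Plin5 thus had opposite signs in this contrast, and neither passed.

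Whether the droplet genes moved with Adipoq within the main body of arrays was examined on the 10 arrays with Adipoq below 400, since 2 separate clusters allow no pooled correlation. Over these 10 arrays Lipe had a Pearson r of 0.546 (permutation p = 0.129, adjusted 0.582) and a Spearman rho of 0.20 (0.582, adjusted 1.0). Mgll 1450391_a_at had 0.539 (0.0789, adjusted 0.582) and 0.455 (0.191, adjusted 1.0). Plin2 had an r of 0.278 (0.428, adjusted 0.771) and a rho of -0.0788 (0.836, adjusted 1.0). Plin5 had -0.0772 (0.852, adjusted 0.872) and 0.00606 (1.0, adjusted 1.0). Of the 9 relations none passed by permutation test in either measure. Without vehicle array 2 and GW array 1, which lay farthest from the Adipoq median, Lipe had an r of 0.144, Plin2 one of -0.364 and Plin4 one of 0.730 (exact permutation p = 0.0676, adjusted 0.608), beside 0.349 with them. As deviations from group means, over the 9 GW, exercise and vehicle arrays, Lipe had an r of 0.727 (permutation p = 0.0344, adjusted 0.155) and a rho of 0.60 (0.0968, adjusted 0.398). Mgll 1450391_a_at had an r of 0.707 (permutation p = 0.0264, adjusted 0.155) and a rho of 0.75 (0.0255, adjusted 0.229), so neither gene passed after adjustment. The deviations were permuted freely across groups although they sum to 0 within each, so these p-values are approximate and likely too small.

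The genes that work beside these proteins did not pass either. The list held 23 droplet partners, Cidec being also on the fat cell list, of which 16 genes with 25 probe sets were tested. By limma 0 of the 25 were called in any of the 8 comparisons. In the combination against vehicle 5 of the 25 were higher and 1 lower at an unadjusted p under 0.05, against 5.48% higher and 9.98% in either direction over all probe sets, with a median log2 fold change of 0.11. Dgat2, an enzyme that makes triglyceride, had 154, 323 and 428 on the combination arrays in its first probe set, against 119.7, 111 and 93.8 on the vehicle arrays (log2 1.36 ± 0.33, adjusted p = 0.147). Cidec, which fuses droplets in fat cells, had 51.6, 283 and 716 on the combination arrays and 112, 45.4 and 62.9 on the vehicle arrays (log2 1.68 ± 0.65, adjusted p = 0.424). Both were high on combination arrays 2 and 3, as Adipoq was. Abhd6, another hydrolase of monoglycerides, had 140.2, 148 and 147 on the combination arrays, including array 1, and 101, 78.7 and 114 on the vehicle arrays in one probe set (log2 0.58 ± 0.22, adjusted p = 0.413). Its other probe set, dim and with combination array 2 at 4.86, gave -1.42 ± 0.62 (0.484), so the 2 disagreed.

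The direct regulators of Pnpla2 were read as well. Abhd5 (CGI-58), its activator, had 483, 443 and 378 on the combination arrays, 377, 383 and 371 on the GW arrays, 445, 393 and 427 on the exercise arrays and 409.6, 381 and 494 on the vehicle arrays in its brighter probe set. The GW arrays were among the lowest and differed from vehicle by -0.18 ± 0.13 on the log2 scale (adjusted p = 0.851). The dimmer Abhd5 probe set gave 0.26 ± 0.23 in the same comparison (0.878), so the 2 differed in sign. G0s2, the inhibitor of Pnpla2, had 162, 187 and 299.9 on the combination arrays, 426, 146 and 203 on the GW arrays, 426, 443 and 288 on the exercise arrays and 418, 231 and 232 on the vehicle arrays. The combination arrays were mostly low, but array 3 overlapped exercise array 3, and the difference from exercise was -0.86 ± 0.35 on the log2 scale (adjusted p = 0.481). Hilpda, a further inhibitor, had 60.3, 48.3 and 24.4 on the combination arrays, 8.37, 32.3 and 35.0 on the GW arrays, 43.5, 48.2 and 64.7 on the exercise arrays and 64.0, 25.3 and 37.9 on the vehicle arrays. Its GW difference from vehicle was -0.90 ± 0.55 (adjusted p = 0.826). GW array 1, at 8.37, lay under the 95th percentile of the bacterial controls (20.6), and the other GW arrays lay inside the vehicle range. In GW against vehicle, Ldah, a droplet-associated hydrolase, had -0.72 ± 0.29 in one probe set (adjusted p = 0.736) and 0.019 in the other that was tested, and Aup1, a droplet protein of the ubiquitin system, had -0.30 ± 0.14 (0.772). Aup1 was also the lowest in p for exercise against vehicle, at -0.38 ± 0.14 (adjusted p = 0.372). Against exercise, the combination had Bscl2 (seipin), which shapes nascent droplets, at 0.47 ± 0.16 in its brighter probe set (adjusted p = 0.382) and the carboxylesterase gene Ces1d at 0.79 ± 0.32 in one of 3 (0.486). Fitm1, a muscle protein that partitions fat into droplets, had 0.18 ± 0.08 in the combination against GW (adjusted p = 0.853).

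**Figure D5:**
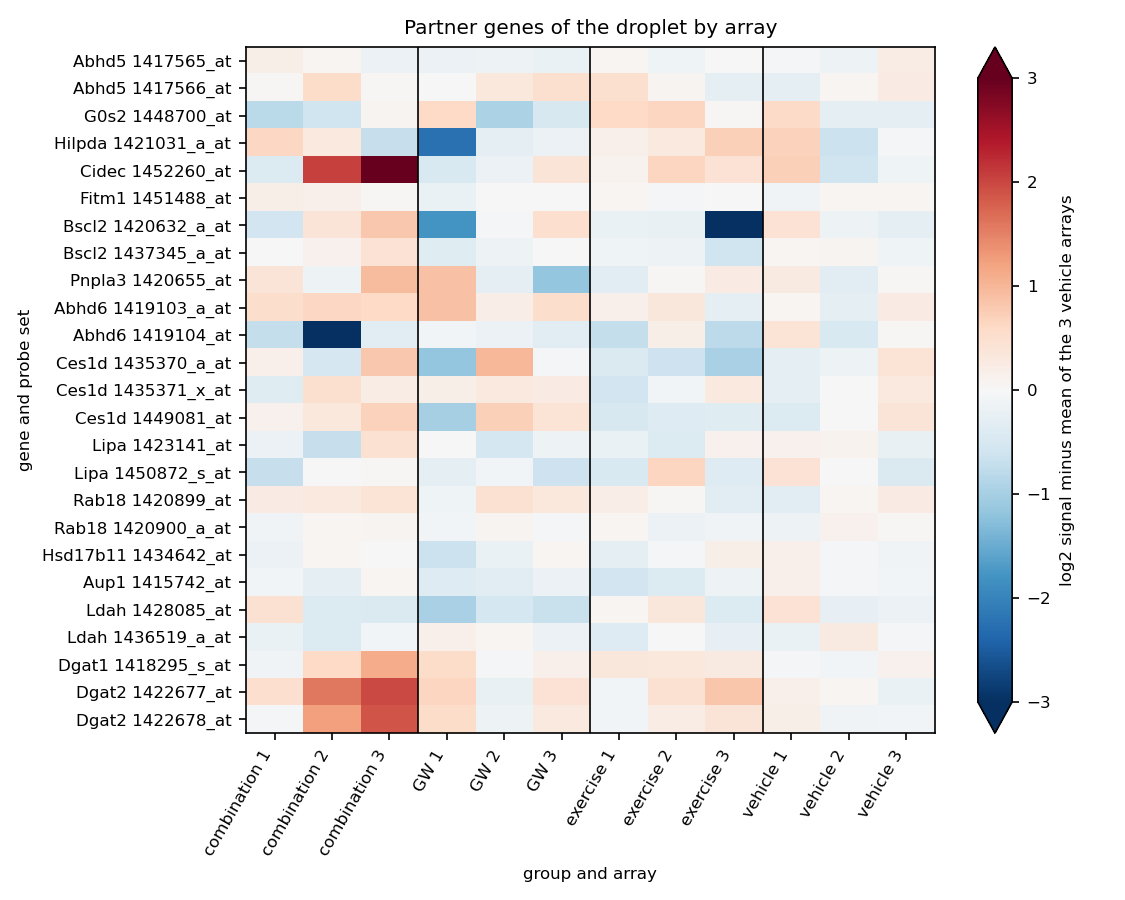
Heat map of the 25 tested probe sets of droplet partner genes (rows) on the 12 arrays (columns), as log2 signal minus the mean of the 3 vehicle arrays, with colours capped at 3 in either direction. Combination arrays 2 and 3 show red in Cidec, Dgat1 and Dgat2, and combination array 1 does not in Cidec and Dgat1.

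The genes whose signal ran most like each droplet gene were taken as the 3 highest Pearson correlations over the 12 arrays, on the log2 scale, among tested probe sets with 1 symbol. Because combination arrays 2 and 3 stand apart in several genes, r over the other 10 arrays, computed after seeing the data, is given in parentheses. All values are descriptive, and the arrays share their groups. Plin2 ran with Fasn at 0.929 (0.834), Scd1 at 0.909 (0.750) and the mitochondrial carrier gene Slc25a10 at 0.908 (0.733), and Fasn and Scd1 serve fatty acid synthesis and desaturation. Lipe ran with Fasn at 0.966 (0.804), the lipogenic regulator gene Thrsp at 0.965 (0.742) and Acly, which makes cytosolic acetyl-CoA, at 0.959 (0.769). Mgll, by probe set 1426785_s_at, ran with Thrsp at 0.977 (0.863), Cdo1 at 0.948 (0.729) and Lipe itself at 0.932 (0.51). The values of these 3 genes were thus lower without the 2 arrays, as were those of Plin4 and some of the other genes below. The partners were picked over all 12 arrays, and this choice by itself favours higher values there. Plin5 ran with Tubb4b at 0.903 (0.899), Fbxo25 at 0.900 (0.906) and Hadhb, a subunit of the mitochondrial trifunctional protein of fatty acid oxidation, at 0.897 (0.907). Pnpla2 ran with Pdk4 at 0.890 (0.888), Akap1 at 0.875 (0.959) and Ldhb at 0.870 (0.851). Plin4 ran with Man2b2 at 0.877 (0.785), Rarres2 at 0.868 (0.785) and Lrg1, the gene on the far side of Plin5 on chromosome 17, at 0.863 (0.805). Plin3 ran with Arhgef2 at 0.872 (0.811), Ski at 0.872 (0.889) and Umps at 0.861 (0.816).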

How the data were processed

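Quadriceps RNA was measured on 12 one-colour arrays with 22690 probe sets. The deposited values are intensities on a linear scale, made with MAS5 per the submitters' processing notes, with the version not given in the sources used here. The mean of each array without its lowest and highest 2% was 199.975 to 199.977, so the authors' scaling to a common level was kept. Array medians were 48.4 to 57.2. Symbols came from the array annotation. Of the probe sets, 64 controls were left out, and the upper 60% by mean log2 signal (above 28.4), 13575 in all, were tested on log2 values without a pseudocount in R 4.3.3 with limma 3.58.1. The 4 groups shared 8 residual degrees of freedom, moderation followed an intensity trend, and p-values were two-sided and adjusted by Benjamini-Hochberg over all probe sets tested. Correlations used scipy 1.17.1, with 100000 resamples over 10 arrays and all permutations over 8 or 9, which for the deviations gives an approximate p. The number of arrays, 3 a group, limits the precision.

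Droplet genes and lists were chosen with earlier results of these data known. Every probe set of the 7 genes is given. Of partner genes the rule names up to 4 per comparison with the smallest p, and Abhd5, G0s2 and Hilpda always. Alternatives were summed up for the folds at least as large as their SE. The titles number the arrays 1 to 3 in each group, all in set 1, and the sources state no pairing of the numbers. Between arrays of the same number, deviations from group means correlated at -0.0484 to 0.1 over 18 pairs. The highest values were those of vehicle with GW, at 0.076, 0.1 and 0.0628 for arrays 1, 2 and 3. Whether arrays of the same number share a factor was not tested. On simulated data for GW against vehicle, with 13575 probe sets and 200 changed, 17.2% were recovered at 1.5-fold, 56.3% at 2-fold and 84.7% at 3-fold. Alternatives were other normalizations, a pseudocount, filters, moderation, weights, fewer groups, a replicate block, Adipoq in the fit, and leaving out arrays.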

Additional observations from a re-analysis of the deposited data

How the results depend on the processing

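The count of droplet probe sets called was 0 of 9 in each of the 8 comparisons by limma and stayed at 0 with quantile or cyclic loess normalization, a pseudocount of 10.5, no filter, a filter at the upper 40%, no intensity trend, a robust prior, the replicate block, Adipoq in the fit and, an alternative chosen after seeing the data, without combination arrays 2 and 3. It was 4 with array weights for the combination against vehicle and 1 for the drug average, and 1 with only the groups compared for the combination against exercise. Leaving out 1 array at a time gave 0 to 4 for the combination against vehicle, 0 to 4 against exercise and 0 to 3 against GW, 0 to 4 for the drug average and 0 to 2 for the training average. The highest counts came without combination array 1, when the group held only arrays 2 and 3, the 2 with high Adipoq. The replicate block changed no call and left every count at 0, with Plin2 in the combination against vehicle at 1.05 (limma adjusted p = 0.134). The signs that turned, none of them called, were as follows. With Adipoq in the fit the combination had -0.078 against vehicle in Plin4 and -0.10 against GW in Mgll 1426785_s_at, the training average -0.16 and -0.012 in Mgll 1426785_s_at and 1450391_a_at, and the interaction -0.14 in Lipe. Without combination arrays 2 and 3 the combination had -0.11 against vehicle in Plin4, -0.038 and -0.096 against exercise in Pnpla2 and Mgll 1453836_a_at, and -0.015, -0.20, -0.26 and -0.012 against GW in Pnpla2, Lipe, Mgll 1426785_s_at and 1450391_a_at. The training average was then -0.21 and -0.012 in Mgll 1426785_s_at and 1450391_a_at, and the interaction -0.43 in Lipe and -0.10 in Mgll 1426785_s_at. Correlations with Adipoq turned without the 2 farthest arrays to -0.364 in Plin2, -0.245 in Pnpla2 and -0.405 in Mgll 1453836_a_at, and as deviations from group means to -0.0344 in Pnpla2 and -0.314 in Mgll 1453836_a_at. The cause was not tested. Of all folds at least as large as their SE, refitted under each alternative, 1210 kept sign and side of the threshold, 26 came to pass it and 16 turned sign. Counts over all probe sets moved more than 1.5 times: 7 to 20 beside 13 in GW against vehicle, 0 to 33 beside 2 in exercise, 7 to 94 beside 21 in the combination, 0 to 83 beside 22 for the combination against exercise, 0 to 35 beside 0 against GW, 9 to 76 beside 43 for the drug average, 0 to 23 beside 2 for the training average and 0 to 9 beside 0 for the interaction. The median log2 fold change of all probe sets had an absolute value of at most 0.0526 in every comparison and alternative.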
